A study of Mus musculus with 12 samples.

Results

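Immediate early genes were followed in sorted Pdgfra+ cells of the mouse forebrain and spinal cord of embryos (E13.5) and of pups on postnatal day 7 (P7). The members were 10 genes taken by symbol, Fos, Fosb, Jun, Junb, Egr1, Ier2, Atf3, Nr4a1, Dusp1 and Arc. Each symbol matched 1 of the 47072 rows of the deposited expression table, and all 10 passed the filter on low values that left 18319 genes for testing. The samples were 12 libraries in 4 groups of 3, E13.5 brain, E13.5 spinal cord, P7 brain and P7 spinal cord. Every animal carried the Pdgfra-H2BGFP knock-in on 1 allele, in which a nuclear histone-GFP fusion is made from the Pdgfra locus, so no group lacks the allele. GFP+ cells were collected by flow sorting from pools of animals of both sexes, and at P7 only the brightly labelled fraction was kept. The fusion protein outlasts Pdgfra mRNA, so cells that had already moved on in the oligodendrocyte lineage can be in the gate. Embryonic tissue was dissociated mechanically with pipettes and P7 tissue with papain, so wherever the ages are compared, age and dissociation method cannot be told apart. Both regions of one age were dissociated in the same way.

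Immediate early genes are transcribed within minutes of a stimulus without any new protein having to be made first, because the factors that switch them on, SRF with its TCF and MRTF partners and CREB, are already in the cell. Their products are mostly transcription factors such as the FOS and JUN subunits of AP-1, together with phosphatases and other inhibitors that end the signal. They respond to growth factors and neuronal activity, and also to enzymatic or mechanical handling of tissue, which is why they are commonly inspected in dissociated brain cells.

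Libraries held 12566345 to 38790312 recovered reads, and 1 read was worth 0.0264 to 0.169 CPM, that is, reads per 1000000 of the rescaled library. The oligodendrocyte precursor markers Pdgfra, Cspg4, Olig1, Olig2, Sox10 and Ptprz1 summed to 1204 to 2179 CPM in brain and 606 to 1000.7 in spinal cord at E13.5, and at P7 to 7812 to 8728 and 6635 to 6667. E13.5 spinal cord replicate 3 stood apart, with a deposited scaling factor of 0.472 where the other libraries had 0.955 to 1.199. Its reads differed from those of replicates 1 and 2 by a mean chi-square per gene of 638 and 758. No replicate pair without this library exceeded 48.5. P7 replicates 1 and 2 were much closer to each other than to replicate 3, with a mean chi-square per gene of 2.43 in brain and 3.65 in spinal cord, where other replicate pairs gave 17.0 or more. The study's methods describe the 3 libraries of each group as pooled biological replicates, so they were kept separate, and member calls lost when these pairs were averaged are named below. The deposited scaling of the P7 brain libraries was 13.1% to 16.3% above a trimmed-mean (TMM) scaling of the same reads, while the 9 other libraries had the TMM value. It moved the median change of all tested genes to -0.19 on the log2 scale in P7 brain, both against E13.5 brain and against P7 spinal cord, and to 0.24 in the difference between the regions' age changes.

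In brain, 8 of the 10 members were lower at P7 than at E13.5 and none was called higher. The 8 were Fos, Fosb, Jun, Junb, Egr1, Ier2, Atf3 and Dusp1. After TMM scaling the brain calls were 6 lower, without Jun and Junb, and 1 higher, Nr4a1. In spinal cord only Fosb, Atf3 and Dusp1 fell, while the orphan nuclear receptor gene Nr4a1 and the synaptic gene Arc rose. A call required a Benjamini-Hochberg adjusted p under 0.05 in limma and more than a 2-fold change, on log2(CPM + 0.5), a scale that understates the change of low genes. Of all tested genes 16.7% were called lower and 11.0% higher at P7 in brain, 27.7% in either direction. In spinal cord 18.2% were called lower and 16.9% higher, 35.1% in either direction. The median log2 change of the members was -1.76 in brain, where that of all tested genes was -0.19, and -0.09 in spinal cord, where that of all tested genes was 0.12. The 3 brain libraries of P7 lay wholly below the 3 of E13.5 for 8 members and wholly above for Nr4a1, while ranges were apart for 72.6% of all tested genes. In spinal cord ranges were apart for 4 members, against 70.8% of all tested genes. In bulk libraries fewer cells of a type and less RNA per cell cannot be told apart.

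**Figure D1:**
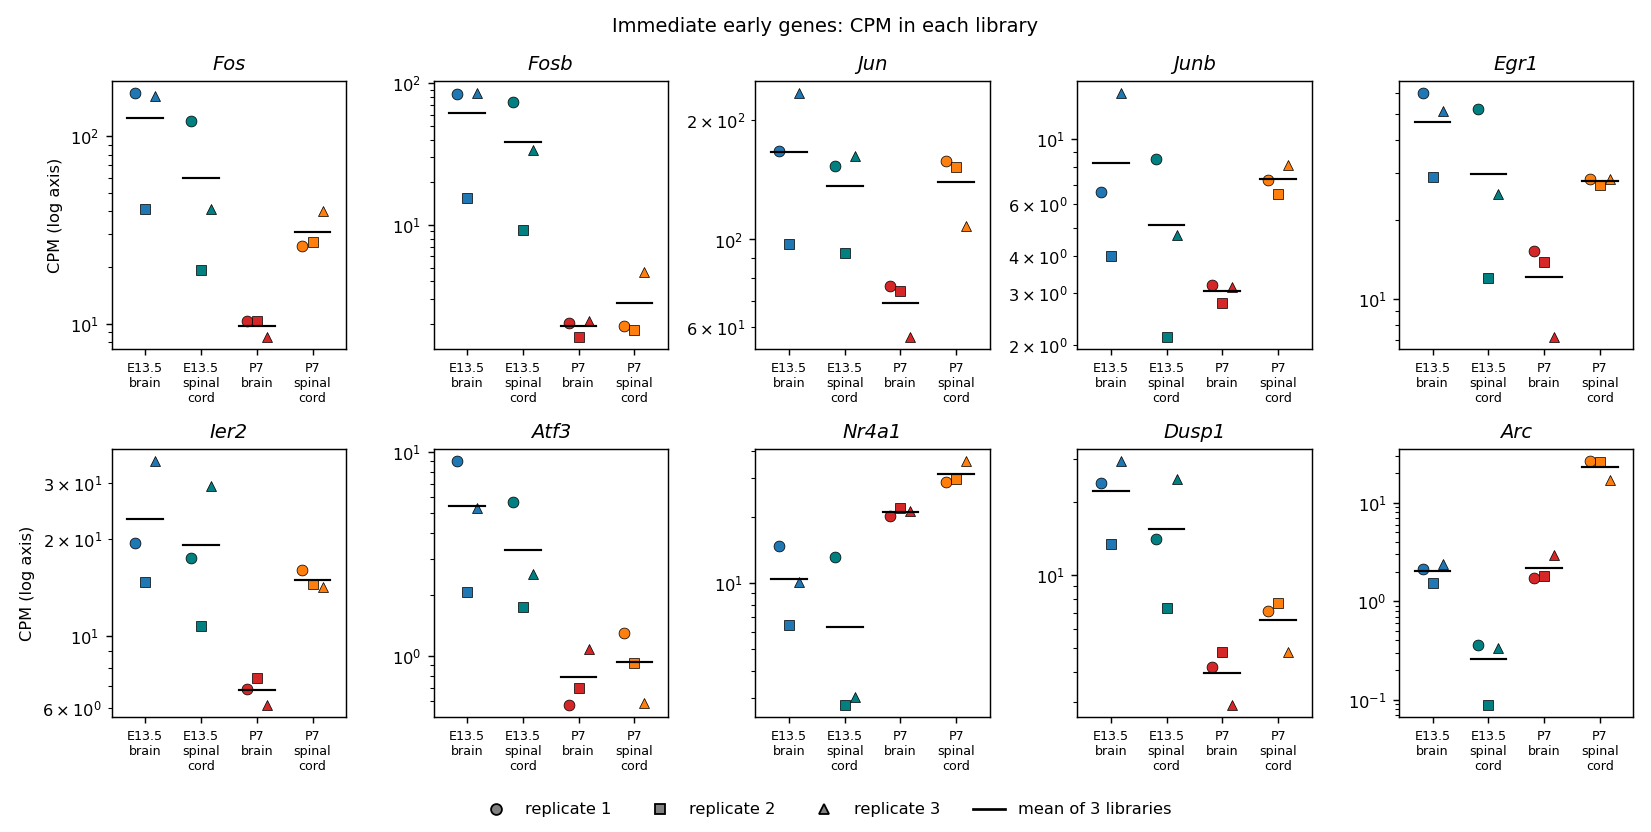
CPM of the 10 members on log axes in each of the 12 libraries, by group, with marker shape for replicate number and a bar for the mean of 3. The squares of replicate 2 are the lowest point of both E13.5 groups in every panel, and Arc in P7 spinal cord sits at 17.0 to 26.4 CPM while no other group exceeds 2.96.

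Promoter sequence is shown for 5 members, 4 that fell with age in brain under every alternative tried and Nr4a1, whose level was higher at P7, so that the letters upstream of genes moving in opposite directions can be compared. Each run is the 150 bases just before the RefSeq start, 5′ to 3′ on the gene's strand, from build GRCm38.p6. Capitals mark letters matching, on either strand, the TATA box TATAAA, the core of the cAMP response element that CREB and ATF factors bind, TGACG, or that whole element, TGACGTCA.
Fos, chr12:85473740-85473889, + strand: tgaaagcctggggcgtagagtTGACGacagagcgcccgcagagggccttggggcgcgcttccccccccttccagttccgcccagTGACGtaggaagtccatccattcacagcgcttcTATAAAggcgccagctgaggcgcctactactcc
Fosb, chr7:19310046-19310195, - strand: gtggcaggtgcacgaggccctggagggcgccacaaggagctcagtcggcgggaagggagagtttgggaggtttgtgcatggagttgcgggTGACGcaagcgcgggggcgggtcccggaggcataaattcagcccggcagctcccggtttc
Atf3, chr1:191183334-191183483, - strand: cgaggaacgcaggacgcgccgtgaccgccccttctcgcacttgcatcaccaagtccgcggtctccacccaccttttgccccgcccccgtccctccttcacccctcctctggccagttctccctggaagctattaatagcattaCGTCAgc
Dusp1, chr17:26508473-26508622, - strand: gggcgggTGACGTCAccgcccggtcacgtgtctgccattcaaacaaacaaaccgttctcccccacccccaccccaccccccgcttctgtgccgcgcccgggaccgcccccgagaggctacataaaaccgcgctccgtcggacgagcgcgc
Nr4a1, chr15:101266696-101266845, + strand: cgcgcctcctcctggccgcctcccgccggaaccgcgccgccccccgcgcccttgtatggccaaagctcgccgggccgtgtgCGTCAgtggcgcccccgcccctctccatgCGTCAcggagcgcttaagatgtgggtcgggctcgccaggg

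RefSeq promoter sequence was matched for 7 members, these 5 with Jun and Junb. In the 250 bases before the start, 6 of the 7 held TGACG on either strand, the exception being Jun, and 17.8% of all 32851 promoters in the table did. The whole element TGACGTCA, which contains TGACG on both strands, was in Dusp1 alone, 136 to 143 bases before its start, and in 1.55% of all promoters. A TATA box was matched in Fos, 28 to 33 bases before its start, and in 12.4% of all promoters. The serum response element (CArG box) and the AP-1 site (TGACTCA, or TGAGTCA on the other strand) had no match in the 7 windows, where 1.47% and 4.46% of all promoters had one. Nr4a1 held 4 matches to TGACG, its nearest one 36 bases before the start, so the motif was on both sides of the split between members that fell in brain and the one that did not. A match is a description of these letters and not evidence of binding. Sequence farther upstream than 250 bases was not searched, and Egr1, Ier2 and Arc were not among the 7. A missing match is therefore not evidence that a gene lacks the element.

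Levels between genes were compared per kilobase of annotated exon. In E13.5 brain Fos led with 53.0 ± 30.8 CPM per kb (SD, n = 3), beside Jun at 52.2 ± 21.4, and the ranges of both overlapped. In P7 brain Jun was highest at 21.7 ± 3.35 CPM per kb and Fos had dropped to 4th place at 4.14 ± 0.454. Nr4a1 moved from 8th place in E13.5 brain, at 2.98 ± 1.19 CPM per kb, to 2nd in P7 brain, at 6.02 ± 0.260. Fosb moved from 5th place in E13.5 brain, at 9.84 ± 6.39, to last in P7 brain, at 0.308 ± 0.0422. The lengths join all annotated exons of a gene, 6243 bases for Fosb, so its place depends on them. By mean CPM in P7 brain Fosb, at 1.92, was above Atf3, at 0.784. Arc was last in both E13.5 groups, with 0.0852 ± 0.0489 CPM per kb in spinal cord, and 5th in P7 spinal cord, at 7.58 ± 1.74.

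**Figure D2:**
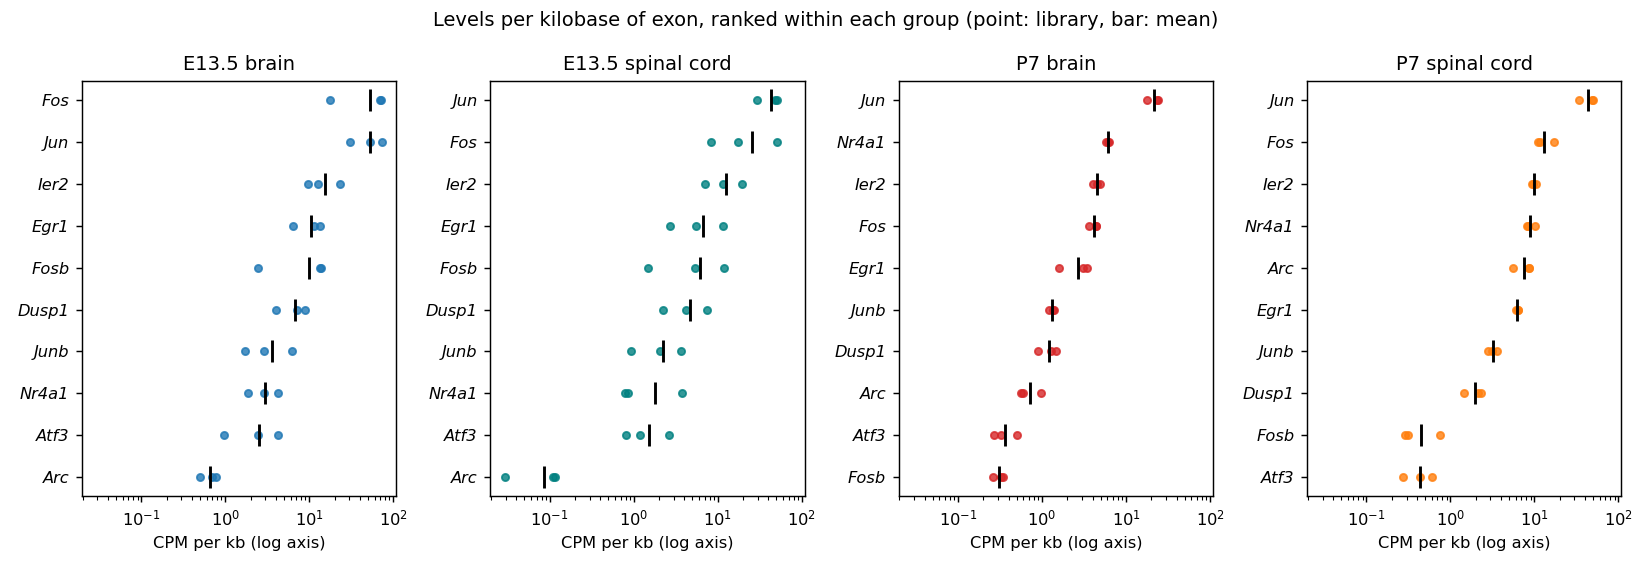
Level per kilobase of exon (CPM per kb, log axis) of the 10 members, ranked within each group, with a point for each library and a bar for the group mean. Jun keeps the 1st or 2nd place in all 4 groups, while Fosb falls from 5th place at E13.5 to the last places at P7 and Arc rises to 5th in P7 spinal cord.

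Fos and Fosb encode the FOS subunits of AP-1, which bind DNA only as partners of JUN proteins. Fos (ENSMUSG00000021250, chr12:85473890-85477273 in GRCm38, + strand) was measured at 169.9, 41.1 and 163 CPM in E13.5 brain replicates 1 to 3 and at 10.4, 10.3 and 8.502 in P7 brain. All P7 brain libraries lay below all E13.5 brain libraries, and Fos fell by 3.37 on the log2 scale (SE 0.59, limma adjusted p = 0.000327). In spinal cord Fos was at 120.1, 19.4 and 40.8 CPM at E13.5 and at 25.9, 27.3 and 39.8 at P7. These ranges overlapped, and the change of -0.58 (SE 0.59) missed the threshold (limma adjusted p = 0.397). The age change of Fos was 2.78 higher in spinal cord than in brain (SE 0.84, limma adjusted p = 0.0197). With both E13.5 libraries numbered 2 left out, a choice made after seeing the data, Fos was also called lower in spinal cord, by -1.19 (limma adjusted p = 0.0151).

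Fosb (ENSMUSG00000003545, chr7:19302696-19310051, - strand) was at 83.9, 15.4 and 84.9 CPM in the embryonic brain libraries and at 73.4, 9.20 and 33.6 in those of embryonic spinal cord. At P7 it was at 2.03, 1.62 and 2.11 CPM in brain and at 1.94, 1.82 and 4.65 in spinal cord. No P7 library reached an E13.5 library of either region. Fosb fell by 4.33 in brain (SE 0.71, limma adjusted p = 0.00019) and by 3.24 in spinal cord (SE 0.71, limma adjusted p = 0.00137), the deepest fall of any member in both regions, and the difference between the regions was not called (1.10, SE 1.01, limma adjusted p = 0.416). The ratio of Fosb to Fos per kilobase was 0.141 to 0.310 in the 6 E13.5 libraries, 0.0590 to 0.0936 in P7 brain and 0.0251 to 0.0441 in P7 spinal cord, so the 3 sets of libraries did not overlap.

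Jun and Junb encode JUN subunits, which pair with each other or with FOS proteins. Jun (ENSMUSG00000052684, chr4:95049034-95052222, - strand) was in brain at 168, 97.6 and 234 CPM at E13.5 and 76.2, 74.2 and 56.8 at P7, and in spinal cord at 153, 92.5 and 163 and at 158, 153 and 108. P7 brain was the low group, below every other library. Jun fell by 1.19 in brain with age (SE 0.29, limma adjusted p = 0.00366) and was -1.002 in brain against spinal cord at P7 (SE 0.29, limma adjusted p = 0.0218), while its spinal cord change of 0.06 (SE 0.29) was not called (limma adjusted p = 0.871). After TMM scaling neither call on Jun held, at -0.997, which did not pass 2-fold, with age in brain and -0.81 (limma adjusted p = 0.078) between regions.

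Junb (ENSMUSG00000052837, chr8:84974484-84978718, - strand) went in brain from 6.60, 3.996 and 14.3 CPM at E13.5 to 3.21, 2.78 and 3.14 at P7, and in spinal cord was at 8.52, 2.13 and 4.72 and then 7.26, 6.51 and 8.16. Its fall in brain of -1.14 (SE 0.43, limma adjusted p = 0.0359) stayed called in 14 of 23 alternatives. After TMM scaling it was -0.97 (limma adjusted p = 0.0682), and with P7 replicates 1 and 2 averaged -1.13 (limma adjusted p = 0.0985). Junb shares 173 exon bases, 7.52% of its exons, with Prdx2 on the other strand, which stands at 261 CPM on average beside 5.94 for Junb. Strand use in the counting was not given in the sources used here, so Junb values are uncertain. Jun shares 232 exon bases with the antisense gene Junos, at 1.87 CPM on average.

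Egr1 encodes a zinc-finger transcription factor and Ier2 a small nuclear regulator. Egr1 (ENSMUSG00000038418, chr18:34859823-34864984, + strand) was at 60.1, 29.0 and 51.6 CPM in E13.5 brain and at 15.2, 13.9 and 7.21 in P7 brain, where it fell by 1.91 (SE 0.44, limma adjusted p = 0.0022). It was at 52.5, 12.001 and 24.97 CPM in E13.5 spinal cord and at 28.6, 27.0 and 28.4 in P7 spinal cord, with an overlap and a change of 0.15 (SE 0.44, limma adjusted p = 0.772). The P7 spinal cord libraries thus sat inside the E13.5 range, while the P7 brain libraries sat below theirs. The age changes of Egr1 differed by 2.07 between the regions (SE 0.62, limma adjusted p = 0.019).

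Ier2 (ENSMUSG00000053560, chr8:84661331-84662852, - strand) was at 19.5, 14.8 and 35.02 CPM in E13.5 brain and at 6.85, 7.41 and 6.13 in P7 brain, a fall of 1.61 (SE 0.33, limma adjusted p = 0.000937). In spinal cord it was at 17.6, 10.8 and 29.4 CPM at E13.5 and at 16.1, 14.6 and 14.2 at P7, a change of -0.24 (SE 0.33, limma adjusted p = 0.523). The difference of 1.36 between the age changes (SE 0.46, limma adjusted p = 0.0329) was called in 11 of 24 alternatives and was 1.18 after TMM scaling (limma adjusted p = 0.0664).

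Atf3, a stress-induced bZIP factor of the ATF/CREB family (ENSMUSG00000026628, chr1:191170296-191218039, - strand), was the lowest member at P7 by CPM. At E13.5 it was at 9.03, 2.06 and 5.31 CPM in brain and 5.66, 1.73 and 2.53 in spinal cord, and at P7 the brain libraries held 0.575, 0.694 and 1.08 and the spinal cord libraries 1.30, 0.925 and 0.589. Every P7 library lay below every E13.5 library, and the P7 values rest on 19 to 48 reads each. Atf3 fell by 2.04 in brain (SE 0.45, limma adjusted p = 0.00166) and by 1.30 in spinal cord (SE 0.45, limma adjusted p = 0.0204). The spinal cord call was lost without E13.5 spinal cord replicate 1 or without P7 spinal cord replicate 3, and the difference between regions was 0.74 (SE 0.63, limma adjusted p = 0.379).

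Dusp1, the phosphatase that switches off MAP kinases and so ends the signal that induces these genes (ENSMUSG00000024190, chr17:26505590-26562128, - strand), was at 23.9, 13.4 and 29.3 CPM in E13.5 brain and at 4.18, 4.83 and 2.93 in P7 brain. It fell by 2.30 (SE 0.38, limma adjusted p = 0.000207). In spinal cord it was at 14.1, 7.33 and 24.8 CPM at E13.5 and at 7.13, 7.68 and 4.84 at P7. These ranges overlapped through E13.5 replicate 2, and the fall of 1.04 (SE 0.38, limma adjusted p = 0.0281) stayed called in 16 of 23 alternatives, being lost with limma-voom (-0.86), without filter or when P7 replicates 1 and 2 were averaged.

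Nr4a1 (ENSMUSG00000023034, chr15:101254269-101274795, + strand) is an orphan nuclear receptor gene and one of the earliest genes induced by growth factors. Brain held 14.8, 6.46 and 10.1 CPM at E13.5 and 20.1, 22.0 and 21.3 at P7, while spinal cord held 13.2, 2.80 and 3.04 at the first age and 28.8, 29.6 and 35.9 at the second. Every P7 library was above every E13.5 library. Nr4a1 rose by 2.55 in spinal cord (SE 0.44, limma adjusted p = 0.000207), a call kept in all 23 alternatives. In brain the change of 1.05 (SE 0.44) missed the threshold (limma adjusted p = 0.0542), and it passed in 10 of 23 alternatives, which ranged from 0.76 to 1.33. It was 1.24 after TMM scaling (limma adjusted p = 0.0275) and 0.76 without both E13.5 libraries numbered 2 (limma adjusted p = 0.163). The ratio of Nr4a1 to Fos CPM was 0.0621 to 0.157 in the E13.5 libraries, 0.902 to 1.11 in P7 spinal cord and 1.94 to 2.5 in P7 brain.

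Arc encodes a synaptic protein that moves AMPA receptors off the membrane and is best known as a marker of recently active neurons (ENSMUSG00000022602, chr15:74669083-74672570, - strand). Brain libraries held 2.14, 1.54 and 2.36 CPM at E13.5 and 1.73, 1.82 and 2.96 at P7, whereas spinal cord libraries held 0.357, 0.0889 and 0.337 at E13.5 but 26.4, 26.1 and 17.0 at P7. In brain the ages overlapped and the change of 0.07 (SE 0.24) was not called (limma adjusted p = 0.813). In spinal cord Arc rose by 4.95 (SE 0.24, limma adjusted p = 3.23e-09). The E13.5 spinal cord values rest on 2 to 6 reads, so the size of this rise depends on the pseudocount, with 4.24 to 6.68 over 23 alternatives, all called. Arc was 3.15 lower in brain than in spinal cord at P7 (SE 0.24, limma adjusted p = 2.17e-06) and 1.73 higher in brain at E13.5 (SE 0.24, limma adjusted p = 0.000186), so the order of the regions turned between the ages.

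**Figure D3:**
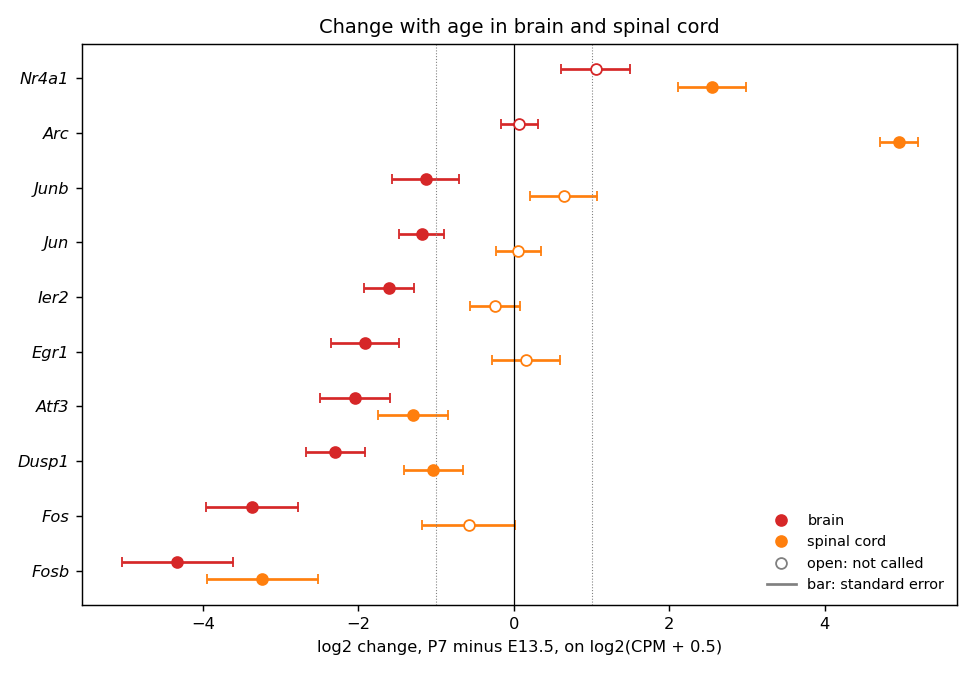
Log2 change from E13.5 to P7 of each member in brain (red) and spinal cord (orange) with its standard error, filled where called. In brain 8 members lie below 0 with filled points, and every member's spinal cord point lies to the right of its brain point.

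The change with age was more positive in spinal cord than in brain for all 10 members, and 6 of them passed the test of the difference itself, Fos, Jun, Junb, Egr1, Ier2 and Arc. Of all tested genes 9.66% were called in this direction and 6.66% in the other, 16.3% in all. The median difference was 1.43 for the members and 0.24 for all tested genes. Only Fos, Egr1 and Arc stayed called after TMM scaling, and only Egr1 and Arc when P7 replicates 1 and 2 were averaged, with the adjusted p of Egr1 then at 0.0499. Each of these alternatives left the difference positive for all 10 members. The share of higher calls among all genes called went from 59.2% to 45.1% after TMM scaling.

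Between regions of the same age, where dissociation was alike, Arc was the only member called at E13.5, higher in brain. A fit with replicate numbers as blocks within each age also called Fos higher in brain (1.18, limma adjusted p = 0.00684). At that age 3.53% of all tested genes were called higher in brain and 5.17% lower, 8.71% in all, and library ranges were apart for Arc alone among the members, against 37.7% of all tested genes. All 10 members had a positive brain minus spinal cord difference at E13.5, with a median of 0.69, though Fosb, Jun and Ier2 changed sign when E13.5 spinal cord replicate 2 was left out. At P7 all 10 were lower in brain, with a median of -1.04 where that of all tested genes was -0.19. Of these, Jun, Egr1, Ier2 and Arc were called, with differences of -1.002, -1.24, -1.09 and -3.15. Of all tested genes 4.35% were called lower in brain at P7 and 2.27% higher, 6.62% in all. The ranges of the P7 regions were apart for 8 members, all but Fosb and Atf3, and for 61.7% of all tested genes. After TMM scaling Arc was the only member called between the P7 regions, and the share of higher calls among all genes called went from 34.3% to 46.6%. Averaging P7 replicates 1 and 2 also left Arc alone. Fos missed the threshold at P7 with -1.60 (SE 0.59, limma adjusted p = 0.0602). Its P7 brain libraries, at most 10.4 CPM, nevertheless lay below its P7 spinal cord libraries, at least 25.9 CPM. The SE of 0.59 comes from the fit over libraries of both ages, so it carries the E13.5 spread as well. The replicate SD of Fos (log2 scale) was 1.16 and 1.31 in E13.5 brain and spinal cord, and 0.16 and 0.33 at P7. For Junb, which was not called between the P7 regions either, it was 0.87 and 0.89, and 0.10 and 0.15. The region tests were not repeated on the P7 libraries alone.

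Oligodendrocyte markers moved with the P7 region difference. Mbp, Mag, Mog and Opalin summed to 620.4 to 1604 CPM in P7 brain and 5929 to 9260 in P7 spinal cord, all 4 being called lower in brain. The microglial markers moved the other way, with 30.6 to 62.5 CPM in P7 brain and 15.9 to 23.9 in P7 spinal cord, 6 of the 7 tested being called higher in brain. The part of either in the member differences was not tested. Markers of pericytes and leptomeningeal cells moved with age, from 2591 to 3718 CPM in E13.5 brain to 696 to 923 in P7 brain, and from 5357 to 5813 in E13.5 spinal cord to 651 to 1306 in P7 spinal cord. Of these 8 markers, 6 were called lower and 1 higher at P7 in brain, and all 8 lower in spinal cord. Neuronal markers summed to 654 to 827 CPM in E13.5 brain and 670 to 842 in E13.5 spinal cord. At P7 they summed to 313 to 357 CPM in brain and to 273 to 284 in spinal cord. Of these 6 markers, 2 were called lower and 0 higher at P7 in brain, and 4 lower and 0 higher in spinal cord. Between the P7 regions 2 were called higher in brain and 0 lower. Stmn2 differed most, at 18.2 to 22.3 CPM in P7 brain and 1.02 to 2.89 in P7 spinal cord. The part of the neuronal markers in the Arc values was not tested. The endothelial markers summed to 28.3 to 36.3 CPM in P7 brain and to 21.3 to 27.4 in P7 spinal cord, and the astrocyte markers to 536 to 594 and 262 to 302. Opalin was the one marker at 0 reads in a whole group, E13.5 spinal cord.

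Replicates of E13.5 differed in the members more than in most genes. E13.5 replicate 2 was the lowest of its 3 libraries for all 10 members in brain and for all 10 in spinal cord, whereas it was lowest in both regions for 5.91% of all tested genes, in brain for 25.8% and in spinal cord for 20.6%. The mean of replicates 1 and 3 was 4.05 times the Fos value of replicate 2 in brain and 4.14 times in spinal cord. In spinal cord that mean joins unlike values, 120.1 CPM in replicate 1 and 40.8 in replicate 3. For Fosb the mean of replicates 1 and 3 was 5.49 times the replicate 2 value in brain, and 5.81 times in spinal cord, the highest of the members in both regions. Replicate 2 stood below the mean of the other libraries by a median of -0.98 on the log2 scale over the members in brain and -1.19 in spinal cord, where all tested genes had a median of 0.03 and 0.02. The summed CPM of the 10 members was 558, 225 and 630.1 for the embryonic brain libraries and 459, 158 and 327 for those of spinal cord. At P7 the sums were 141, 139 and 112 in brain and 302, 294 and 262 in spinal cord, so E13.5 spinal cord replicate 2 lay below all P7 spinal cord libraries. Both replicate-2 libraries had the most recovered reads of their group, 19903022 and 18757570. In both, the pericyte and leptomeningeal markers were also at the lowest sum of the group, 2591 CPM in brain and 5357 in spinal cord, whose part was not tested. Whether replicate 2 of both regions came from the same litters or day was not given in the sources used here.

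**Figure D4:**
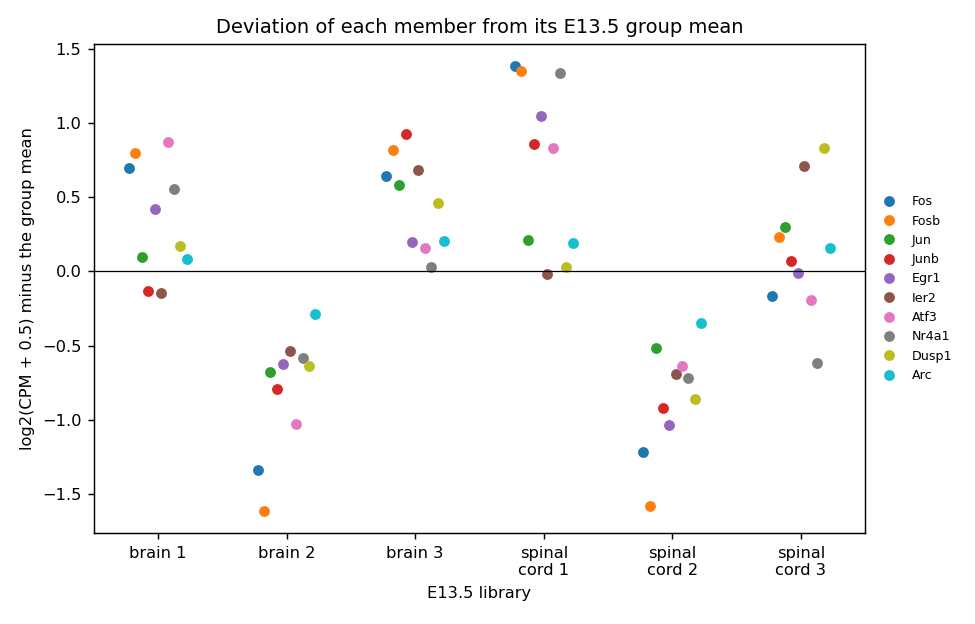
Deviation of each member from its E13.5 group mean on log2(CPM + 0.5) in the 3 brain and 3 spinal cord libraries. All 10 points of replicate 2 lie below 0 in both regions, with Fosb lowest. All 10 points of brain replicate 3 lie above 0. Brain replicate 1 and spinal cord replicates 1 and 3 have points on both sides of 0. In spinal cord Nr4a1 lies at 1.34 in replicate 1, -0.72 in replicate 2 and -0.62 in replicate 3.

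The spread followed. The SD of log2(CPM + 0.5) among replicates had a median over the members of 0.63 in brain and 0.87 in spinal cord at E13.5, against 0.17 and 0.25 for all tested genes. In E13.5 brain 9 of 10 members were above the 95th percentile of all tested genes, and in E13.5 spinal cord 7 were. At P7 the members' median SD was 0.20 in brain and 0.32 in spinal cord, against 0.10 and 0.09, with 1 and 2 members above the 95th percentile. Egr1 in P7 spinal cord spanned only 27.0 to 28.6 CPM, whereas in E13.5 spinal cord it spanned 12.001 to 52.5. Without both E13.5 libraries numbered 2 the members called numbered 8 with age in brain, 6 with age in spinal cord, 1 between regions at E13.5, 6 between regions at P7 and 6 for the difference of the age changes.

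Other early genes were counted by list, to be read beside the shares of all tested genes, 16.7% lower and 11.0% higher at P7 in brain and 18.2% lower and 16.9% higher in spinal cord. Of 14 tested early transcriptional regulators outside the members, 4 were called lower and 0 higher at P7 in brain, while in spinal cord 3 were higher and 3 lower. With 0 higher calls in brain by limma, TMM scaling gave 1. Klf4, a zinc-finger factor, fell from 9.13 to 19.5 CPM at E13.5 to 0.939 to 1.32 at P7 in brain (-3.17, limma adjusted p = 4.62e-07) and from 9.11 to 12.98 to 1.16 to 2.05 in spinal cord (-2.59). Klf2 fell by 1.84 in brain, and in spinal cord it went from 5.65 to 11.5 CPM at E13.5 to 1.30 to 1.86 at P7. Of the nuclear receptor relatives of Nr4a1, Nr4a3 rose in spinal cord by 1.35, from 1.35 to 3.16 CPM to 5.45 to 6.29, while Nr4a2 fell there by 2.13, to 0.891 to 1.05 CPM, so the family did not move as one. Myc rose in spinal cord by 1.38. Npas4 and Egr4 did not pass the filter on low values.

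Of the 6 other AP-1 and bZIP subunits tested, 3 were lower and 1 higher at P7 in brain, and 2 were lower in spinal cord. Fosl2, a FOS relative, fell by 1.23 in brain and by 1.82 in spinal cord. Jdp2, a repressor of AP-1, rose in brain by 1.15, from 3.95 to 4.61 CPM to 9.29 to 10.7. Of the 14 early feedback inhibitors, which include dual-specificity phosphatases like Dusp1, 5 were lower in brain, with Gadd45g at -1.75 and Sik1 at -1.71, and 3 after TMM or median-ratio scaling. None was higher by limma under these scalings. In spinal cord 1 rose, the pseudokinase gene Trib1 (1.40), and 1 fell, Sik1 (-1.02). Of 11 factors that act upstream, in the SRF and CREB pathways, 2 were lower in brain, Crem (-1.13) and Mkl1 (-1.09), a coactivator of SRF, and both calls were lost after TMM and after median-ratio scaling. In spinal cord 4 of the 11 were lower and 1 higher, and after median-ratio scaling 5 and 0.

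Synaptic activity effectors did not follow Arc as a list. Of 9 tested, 2 were higher and 2 lower at P7 in spinal cord, against 0 and 2 after median-ratio scaling. In brain 1 was higher and 1, Nrn1 at -1.001, lower, against 2 and 0 after TMM or median-ratio scaling. Nrn1, a neuritin gene often induced with Arc, fell by 3.66 in spinal cord, from 7.60 to 11.5 CPM at E13.5 to 0.0931 to 0.401 at P7, where Arc rose. Bdnf was the only gene of the list called lower in brain than in spinal cord at P7 (-1.22), at 0.666 to 1.02 and 1.92 to 3.08 CPM. In that comparison 1 gene of the list was called higher. Nptx2, a secreted pentraxin gene, rose in both regions, by 1.91 in brain and 1.11 in spinal cord. Ptgs2 rose in spinal cord by 1.04, from 0 to 0.536 CPM at E13.5, where it rests on few reads, to 0.802 to 1.40 at P7. After median-ratio scaling neither this rise nor that of Nptx2 in spinal cord was called.

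Heat shock genes, which like the members respond to handling, showed their own pattern. The inducible Hsp70 genes Hspa1a and Hspa1b rose at P7 by 1.87 and 2.32 in brain and by 4.90 and 5.29 in spinal cord. Hspa1a stood at 2.06 to 4.29 CPM in brain and 2.62 to 3.37 in spinal cord at E13.5, and at 11.2 to 16.6 and 90.8 to 121 at P7. These are near-identical copies counted with fractional sharing of reads, so the split between them is uncertain. Of the 12 heat shock genes, 2 were higher and 2 lower at P7 in brain and 3 higher and 2 lower in spinal cord, with the co-chaperone gene Bag3 lower in both (-1.20 and -2.38). The age change was more positive in spinal cord for 8 of the 12 by call and less so for 1, beside 9.66% and 6.66% of all tested genes. After TMM scaling it was so for 6 and 1, and after median-ratio scaling for 3 and 1. Hspa1a was thus highest in the group in which Arc and Nr4a1 were highest, while Fos, Fosb and Atf3 were highest in E13.5 brain, where Hspa1a was near its lowest. Of 6 integrated stress response genes tested, 2 rose in brain and 3 in spinal cord, among them Ddit4 (1.13 and 2.01), while Atf3, which the same response can induce, fell.

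**Figure D5:**
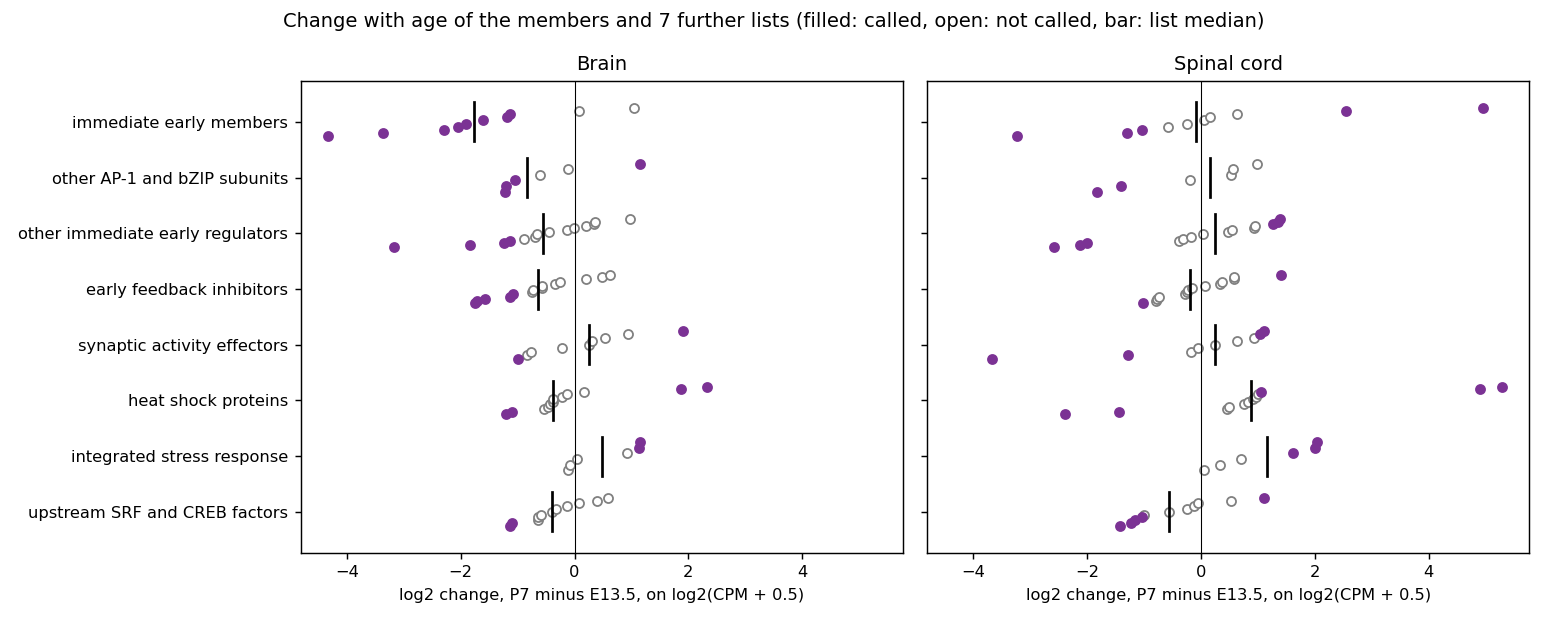
Log2 change from E13.5 to P7 of each tested gene in the members and 7 further lists, in brain (left) and spinal cord (right), filled where called, with a bar at the list median. The members' bar lies at -1.76 in brain and -0.09 in spinal cord, and the 2 points far to the right among the heat shock proteins are Hspa1a and Hspa1b.

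The members split by the likeness of their profiles, measured as the root mean square difference of log2(CPM + 0.5) over the 12 libraries after centring each gene. Jun and Ier2 were the closest pair, at 0.27. Fosb was nearest to Fos, at 1.05, and Arc was nearest to Nr4a1, at 1.15, and farthest from Fosb, at 3.41. Among all other tested genes with a mean of at least 1 CPM, Jund, a JUN family gene, was nearest to both Jun (0.23) and Ier2 (0.23), followed for both by the cytokine feedback inhibitor gene Socs3. Ppp1r15a and Egr2 were nearest to Junb (0.41 and 0.42). Klf6 was among the 3 nearest to Egr1 (0.52) and Klf4 among the 3 nearest to Fosb (0.81), behind the collagen gene Col5a2 (0.79). The genes nearest to Arc were Pla2g16 (0.27), Car2 (0.29), which encodes a carbonic anhydrase, and Rab7b (0.51). Megf10 was nearest to Fos (0.70), Epb41l2 to Nr4a1 (0.46), Clic1 to Dusp1 (0.39) and Efhb to Atf3 (0.39).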

How the data were processed

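Total RNA of sorted Pdgfra+ cells was sequenced in 12 libraries. The study's methods state mapping with STAR 2.5.0a to mm10 and GENCODE M8, gene counting with featureCounts 1.5.0-p1 with multi-mapping reads shared as fractions and rounded, and a stranded kit. The submitters' processing notes also name HISAT2 2.0.5 and StringTie 1.3.1c, with no role given. The deposited values are CPM on a rescaled library size. Per the file headers and values, 3 columns sum to more than the CPM total and are recorded as signal, and the authors' deposited scale was kept for them too. Low values were whole multiples of 1 read, and 100% of values gave whole reads within 0.01 read, so reads were recovered for the count tests. SE is from the limma fit over all 12 libraries and SD is the spread among the 3 of a group.

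Genes that reached 0.7 CPM in 3 or more libraries were tested with limma 3.58.1 (trended empirical Bayes, R 4.3.3) on log2(CPM + 0.5) with 1 mean per group and 12 libraries, adjusted over 18319 genes. Alternatives were TMM and median-ratio scaling, limma-voom, edgeR 4.0.16 and DESeq2 1.42.0 on recovered reads, pseudocounts of 0.1 and 1, no filter, no fold requirement, each library left out, P7 replicates 1 and 2 averaged, and replicate blocks. Tested on simulated reads with 200 genes changed 4-fold between E13.5 and P7 brain, limma recovered 196 of them among 18319 genes. Gene positions and exon lengths are from GENCODE M21 on GRCm38. The members and all lists were chosen with earlier results of these data known. All members are named with each library's value. Of each further list, genes named are among the 2 most changed in each direction in the age comparisons and between P7 regions, and like genes are the 3 nearest per member; Npas4, Egr4 and the marker genes were named for their place in the lists. In the oligodendrocyte list 1 marker is not reported here.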

Additional observations from a re-analysis of the deposited data

Results flagged for a closer look

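The change with age differed between spinal cord and brain, by the test of the difference itself, for 6 members. On log2(CPM + 0.5), spinal cord minus brain, it was 2.78 for Fos, 1.24 for Jun, 1.78 for Junb, 2.07 for Egr1, 1.36 for Ier2 and 4.88 for Arc, in limma with all 12 libraries. For Fos, Jun, Junb, Egr1 and Ier2 the brain fell and the spinal cord was not called, and for Arc the spinal cord rose and the brain was not called. Groups of 3 libraries were not searched for single libraries far from the rest, since the rule used for that needs at least 4.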

How the results depend on the processing

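Among single members, 23 alternatives were run for each age comparison and 24 for each of the other 3, 1180 values in all, of which 1018 kept direction and call, 92 lost the call, 47 gained it and 23 changed sign, none of these a called value. Fos, Fosb, Egr1, Ier2, Atf3 and Dusp1 with age in brain, Fosb, Nr4a1 and Arc with age in spinal cord, and Arc in the other comparisons in which it was called kept their direction and their call in every alternative. The members called between regions at P7 numbered 4 as reported and 1 after TMM scaling, 1 after median-ratio scaling, 1 when P7 replicates 1 and 2 were averaged, 2 with a pseudocount of 1 and 2 without filter. For the difference of the age changes, 6 members as reported became 3 after TMM scaling, 2 after median-ratio scaling, 3 without filter and 2 with the P7 replicates averaged. By construction the median change of all genes is nearer to 0 after these scalings, and averaging leaves fewer samples. Without the fold requirement the genes called were 11227 with age in brain, 12822 with age in spinal cord, 5979 between regions at E13.5, 5491 between regions at P7 and 7290 for the difference, where 5068, 6436, 1595, 1213 and 2990 were called as reported.

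Leaving out 1 library at a time gave 3 to 5 members with age in spinal cord (3 without P7 spinal cord replicate 3), 1 to 4 between regions at E13.5 (4 without E13.5 spinal cord replicate 1, 2 without E13.5 brain replicate 2 or E13.5 spinal cord replicate 3), 1 to 6 between regions at P7 and 2 to 7 for the difference, with 2 without E13.5 brain replicate 3 or P7 brain replicate 3. Between regions at P7 there were 2 without P7 brain replicate 1 or 2 or P7 spinal cord replicate 3, and 1 without P7 brain replicate 3 or P7 spinal cord replicate 1 or 2. For the difference there were 3 without E13.5 spinal cord replicate 2 or P7 spinal cord replicate 1 or 2. In these fits an arm with fewer libraries is assumed to vary like the other groups.

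Values that were not called changed sign in some alternatives, and the cause was not tested. With age in brain, Arc ranged from -0.13 to 0.19 over the single libraries left out and was -0.072 with both E13.5 libraries numbered 2 left out. With age in spinal cord, leaving out 1 library gave -1.19 to 0.11 for Fos, -0.20 to 0.23 for Jun, -0.37 to 0.68 for Egr1 and -0.59 to 0.11 for Ier2. There Jun was -0.081 after median-ratio scaling, -0.029 with P7 replicates averaged and -0.20 without both E13.5 libraries numbered 2, and Egr1 was -0.096 with edgeR, -0.092 with DESeq2 and -0.37 without those libraries. Between regions at E13.5, leaving out 1 library gave -0.047 to 1.55 for Fosb, -0.046 to 0.58 for Jun and -0.069 to 0.63 for Ier2. At P7 it gave -0.56 to 0.018 for Fosb and -0.34 to 0.024 for Atf3, which was 0.017 with the P7 replicates averaged.

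The labels give replicate numbers to every group, but same-numbered libraries deviated together only in part, with r of 0.31, 0.08 and 0.41 between E13.5 brain and spinal cord and 0.01 to 0.04 between the P7 groups, and E13.5 brain replicate 2 correlated more with spinal cord replicate 1 (0.15). The numbers were therefore not taken as pairs, which does not settle whether litters or days were shared. With a replicate block over all libraries the members called were 9 with age in brain, 5 with age in spinal cord, 1 between regions at E13.5, 6 between regions at P7 and 6 for the difference. A replicate block within age was run for the comparisons inside an age, since each of its blocks lies in 1 age, and gave 2 between regions at E13.5, Arc and Fos (1.18, limma adjusted p = 0.00684), 6 between regions at P7 and 9 for the difference.

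At P7 Atf3 rests on few reads, as do Arc and Ptgs2 in E13.5 spinal cord, where a library's floor of 3 reads is 0.133 to 0.506 CPM. Smaller differences there were not detectable at this depth.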
